A study of Drosophila melanogaster with 4 samples.

Results

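The regions described here are the H3K9me2 clusters that lie on the unplaced sequence of the Drosophila melanogaster genome, on the 2 collections that FlyBase release 5 calls U and Uextra. They were taken by sequence name from the authors' combined list of enriched clusters, which covers the whole series. U held 515 clusters and Uextra 598, so that 1113 of the 5130 clusters in the combined list are described. The study applied ChIP-seq, the sequencing of DNA fragments pulled down with an antibody, to dimethylation of lysine 9 on histone H3 (H3K9me2), with an antibody that the labels number 2. The 2 H3K9me2 ChIP samples, called replicates 1 and 2, and their 2 inputs (sheared chromatin that was not immunoprecipitated) all came from S2-DRSC, a male cultured line that was established from embryos at a late stage. No treatment or mutation is given in the labels. Each ChIP sample has its own cluster list, the labels name each input as the input for 1 of these lists, and nothing says whether the replicates were separate cultures.

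H3K9me2 is laid down by histone methyltransferases and bound by heterochromatin proteins of the HP1 family. It marks the compact, repeat-rich heterochromatin around centromeres and on chromosome 4. Much of that DNA consists of transposon remnants and simple repeats, which are hard to assemble, and pieces that could not be tied to a chromosome were collected in U and Uextra. U holds scaffolds that could not be placed, and Uextra holds further, mostly small pieces of lower quality. Both are joined end to end, so that position along them has no known chromosomal meaning. Borders between pieces are not marked in the cluster lists, and a gap or a run of clusters may cross one. The genome sequence of release 5 was not used here, so the regions are given by coordinates and not by their bases.

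No test was run. Values exist for 1 group of 2 samples, the members were chosen from a list that covers those same samples, and clusters of a sample are not replicates. The combined list is therefore no separate evidence that the replicates agree. The read depth and the handling of reads that match several places are unknown, and both could matter on repeated DNA. The 6 scaffolds of placed heterochromatin (names ending in Het), chromosome 4 and the 5 long arms are given for comparison.

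Clusters on both collections were short, and those on Uextra were the shorter. The median length in the combined list was 2141 bp on U and 1995 bp on Uextra, against 5441 bp on the Het scaffolds and 3124.5 bp on the long arms. The replicate lists gave medians of 2114 and 2308 bp on U, a mean of 2211 ± 137 bp (SD, n = 2). On Uextra they gave 1965 and 1997 bp, a mean of 1981 ± 22.6 bp. The difference of the U and Uextra means was larger than the spread between replicates.

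The lengths were not spread evenly, and many lay just above 1 kb or near 2 kb. Clusters of up to 1026 bp made up 12.4% on U and 20.6% on Uextra. Between 1820 and 2184 bp the share of clusters up to that length rose from 17.9% to 51.3% on U. On Uextra it rose from 26.8% to 84.1%. The shortest length in the list, 1001 bp, was held by 35 clusters on U (6.80%) and 66 on Uextra (11.0%), against 2.20% on the Het scaffolds and 1.58% on the long arms. The narrow range from 1990 to 2001 bp held 46 clusters on U (8.93%) and 105 on Uextra (17.6%). On the Het scaffolds 4.05% of clusters fell in that range, and on the long arms 0.746%. Long clusters were mostly on U, where 112 of 515 (21.7%) reached 5 kb. On Uextra 22 of 598 (3.68%) did, against 53.4% on the Het scaffolds and 32.2% on the long arms. The longest 10% of the clusters, 52 on U and 60 on Uextra, held 39.7% and 31.4% of the clustered bases.

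**Figure D1:**
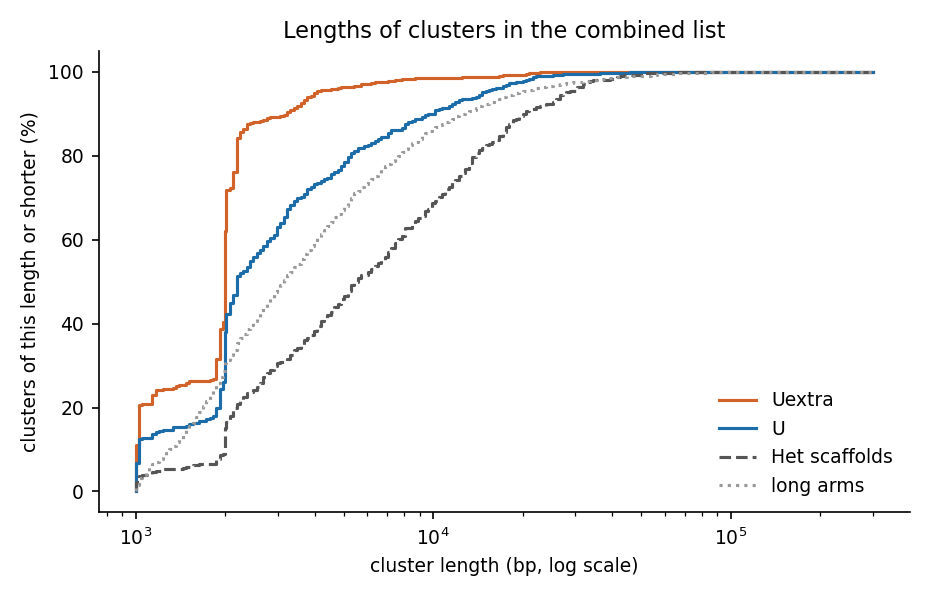
Share of clusters in the combined list (y axis, percent) up to a given length (x axis, bp, log scale) for Uextra, U, the Het scaffolds and the long arms. The Uextra curve rises steeply from 1001 to 1026 bp and from 1820 to 2184 bp, and 57.7% of its clusters are shorter than 2 kb, against 34.2% on U.

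U was covered somewhat more densely than the long arms in each replicate, and Uextra far less than either. Replicate 1 clusters covered 18.4% of the 10.0 Mb of U and replicate 2 clusters 21.6%, which averaged 20.0 ± 2.26% (SD, n = 2). They covered 3.38% and 4.69% of the 29.0 Mb of Uextra, a mean of 4.04 ± 0.930%. The Het scaffolds were covered at 53.6% and 58.3%, a mean of 56.0 ± 3.28%, and the long arms at 14.6% and 18.6%, a mean of 16.6 ± 2.83%. Replicate 2 called 1.12 times as many clusters as replicate 1 on U (502 and 449) and 1.41 times as many on Uextra (606 and 430). The ratio was 0.898 on the Het scaffolds and 1.30 on the long arms. Replicate 2 covered more bases on all of these, 1.17 times as many as replicate 1 on U and 1.39 times on Uextra, against 1.09 on the Het scaffolds and 1.27 on the long arms.

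Coverage was not even along either collection. It was highest at the start of both, in both replicates. In the first 1 Mb window the share was 49.7% (replicate 1) and 53.3% (replicate 2) on U, and 45.6% and 50.7% on Uextra. These values approach the mean of the Het scaffolds. The next windows of Uextra stood at 12.7% and 19.7%, then 4.83% and 8.82%, and then 2.97% and 5.72%.

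On U the decline was slower and had a break. Replicate 1 still covered 21.9% and replicate 2 26.7% of the fourth window, while the fifth stood at 6.26% and 8.78%, and the sixth again at 11.8% and 15.0%. The tenth window stood at 4.07% and 6.43%. The first 4 Mb of U, 39.8% of its length, held 258 clusters (50.1%) and 95 of the 112 clusters of at least 5 kb. The first 2 Mb of Uextra, 6.90% of its length, held 218 clusters (36.5%) and 21 of the 22 clusters of at least 5 kb. In the 23 windows from 5 to 28 Mb of Uextra there were 242 clusters, or 10.5 per Mb, and none was longer than 3435 bp.

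The last 1 Mb window of full length on Uextra stood apart from those before it. It held 32 clusters, against 9 in the window before, and replicate 1 covered 5.50% and replicate 2 4.89% of it. Replicate 1 covered more of Uextra than replicate 2 in this window and in 1 other, the twenty-fourth, at 0.897% and 0.788%. The clusters of the last window had a median score of 2.32, the lowest of any Uextra window, against 2.94 for those from 5 to 28 Mb. Scores are those of the authors, and their scale is not stated. Of these 32 clusters, 20 (62.5%) had at least 50% of their bases in each replicate, against 39.3% of those from 5 to 28 Mb. It also held the one Uextra cluster of at least 5 kb outside the first 2 Mb, 5697 bp at Uextra:28547123-28552819, with 71.4% of its bases in replicate 1 and 69.3% in replicate 2.

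**Figure D2:**
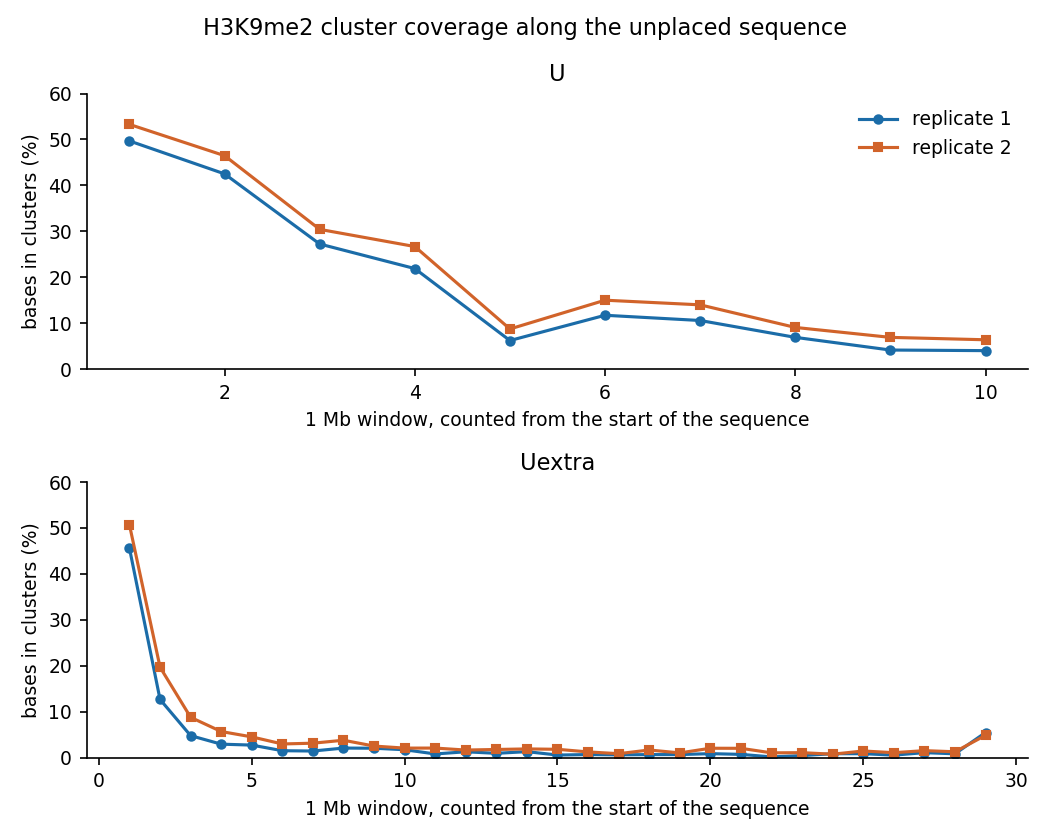
Share of bases inside clusters (y axis, percent) in each full 1 Mb window of U (top) and Uextra (bottom), counted from the start of the sequence, for replicates 1 and 2. Both replicates are highest in the first window, between 45.6% and 53.3%, and Uextra rises again in its last window, to 5.50% and 4.89%.

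Clusters on U stood closer together than those on Uextra. The median gap between neighbours in the combined list was 5.90 kb on U and 15.4 kb on Uextra, against 2.31 kb on the Het scaffolds and 6.90 kb on the long arms. In the replicate lists it was 5.90 and 6.33 kb on U and 16.5 and 16.3 kb on Uextra. The middle 50% of the gaps ran from 1.97 to 17.3 kb on U and from 4.70 to 48.4 kb on Uextra. Gaps of at least 100 kb numbered 10 on U and 82 on Uextra. The longest were 274 kb on U and 606 kb on Uextra, and in the replicate 1 list the longest on Uextra was 1007.8 kb.

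A run was defined as 2 or more clusters with gaps of at most 5 kb. On U, 328 clusters (63.7%) lay in 94 runs, and on Uextra 248 (41.5%) in 89 runs, where 64.8% of all combined clusters did. The share on U was thus near that of the whole list and of the long arms (63.9%), and below that of the Het scaffolds (90.4%) and chromosome 4 (100%). Runs of 5 or more clusters numbered 18 on U and 10 on Uextra, with 139 and 70 clusters. The start of each collection held most of them: 85.3% of the clusters in the first 4 Mb of U were in runs, against 42.0% in the rest. In the first 2 Mb of Uextra 85.8% were, against 26.4% from 2 to 5 Mb, 9.09% from 5 to 28 Mb and 34.4% from 28 Mb to the end. Of the clusters in runs, 72.3% on U and 61.3% on Uextra had at least 50% of their bases in each replicate, against 60.4% and 44.0% of clusters that stood alone.

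The run with most clusters on U was 17 clusters over 211 kb at U:114020-325509, with 84.0% of its bases in clusters of the combined list. Replicate 1 covered 81.9% of it with 18 clusters and replicate 2 82.6% with 15. It held a 37.9 kb, a 26.8 kb and a 21.0 kb cluster, and gaps of 357 to 4741 bp between its members. In 15 of the 17, at least 50% of the bases lay in each replicate. The other 2, of 1005 and 1001 bp, lay almost fully in replicate 1 (98.7% and 99.2%) and met no base of replicate 2. On Uextra 2 runs tied for most clusters, with 11 each. The first spanned 62.9 kb at Uextra:465443-528300, and clusters took up 57.4% of it in the combined list, 51.6% in replicate 1 and 56.1% in replicate 2. The other spanned 42.6 kb at Uextra:577093-619722, with 59.1%, 50.7% and 58.2%.

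The longest clusters lay near the starts of the collections and were found almost whole in both replicates. On U the longest was 45.8 kb at U:371506-417304, where replicate 1 had 1 cluster of 50.6 kb and replicate 2 1 cluster of 45.8 kb. The second was 37.9 kb at U:185978-223876, with 99.5% of its bases in replicate 1 and all in replicate 2. The third, 35.6 kb at U:1336792-1372417, showed how the lists can divide the same stretch differently. Replicate 1 had a cluster of 35.8 kb there, whereas in replicate 2 a single cluster of 58.0 kb also took in the sixth longest combined cluster, 22.0 kb at U:1314379-1336341, 450 bp away. The other 6 of the 10 longest on U, between 21.0 and 26.8 kb, started at 117950, 163264, 482845, 504143, 1237946 and 1962741. None of the 10 had less than 91.2% of its bases in replicate 1 or less than 95.7% in replicate 2.

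On Uextra 1 cluster was far longer than the others. It measured 60.7 kb at Uextra:44904-105622, with 60.5 kb in replicate 1 and 60.7 kb in replicate 2, and was the longest on either collection. The second was 22.5 kb at Uextra:190532-213024 and the third 20.8 kb at Uextra:112228-133038, which replicate 1 split into clusters of 14.3 and 6.31 kb. The tenth had only 8.50 kb. All 10 lay in the first 337900 bases, and the lowest share of bases in a replicate was 89.8% in replicate 1 and 99.0% in replicate 2. The longest cluster stood alone, 6605 bp from the next.

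The replicates shared most of the covered bases of U and about as many as not on Uextra. On U 1734 kb were covered in both, 118 kb in replicate 1 alone and 439 kb in replicate 2 alone, so that 75.7% of the bases covered in either were shared. On Uextra 802 kb were covered in both, 178 kb in replicate 1 alone and 559 kb in replicate 2 alone, and 52.1% were shared. The values were 89.4% on the Het scaffolds, 88.4% on chromosome 4 and 71.3% on the long arms. Of the bases in replicate 1 clusters, 93.6% on U and 81.8% on Uextra lay in replicate 2 clusters. In the other direction the shares were 79.8% and 58.9%. In the 10 full windows of U the shared part ranged from 31.9% in the ninth to 90.3% in the first. On Uextra it was 82.9% in the first and 0% in the twenty-second, where replicate 1 had 1 cluster and replicate 2 had 7.

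Counted per cluster, 350 of 515 on U (68.0%) and 306 of 598 on Uextra (51.2%) had at least 50% of their bases in each replicate, where 67.6% of all combined clusters did. The value for U was near that of the whole list and of the long arms (66.7%), and below that of the Het scaffolds (86.3%) and chromosome 4 (90.7%). On U 94 clusters (18.3%) passed in replicate 2 only and 46 (8.93%) in replicate 1 only, and on Uextra 162 (27.1%) and 72 did, where 20.4% and 6.92% of all combined clusters did. A further 25 on U (4.85%) and 58 on Uextra (9.70%) passed in neither, where 5.01% of all did. Counted by a single shared base, 373 clusters on U (72.4%) and 332 on Uextra (55.5%) were met by both replicates, where 72.9% of all combined clusters were. At the other end, 17 on U and 39 on Uextra met no base of either replicate list, where 3.65% of all combined clusters did. No cluster on U or Uextra had every base in both lists, where 0.0975% of all combined clusters did.

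The share found in both replicates went with cluster length, and at a given length U, Uextra and the Het scaffolds had similar values. Of clusters of exactly 1001 bp, 0 of 35 on U and 2 of 66 on Uextra had at least 50% of their bases in each replicate, and 0 of 13 on the Het scaffolds. From 1002 to 1999 bp the shares were 31.2% on U and 33.0% on Uextra, against 32.4% on the Het scaffolds. From 2000 to 4999 bp they were 85.5% and 82.3%, against 88.7%. All 112 clusters of at least 5 kb on U and all 22 on Uextra passed in both replicates, as did all 316 on the Het scaffolds. Over all combined clusters the shares in these 5 length groups were 1.20%, 26.8%, 79.3%, 96.7% from 5000 to 9999 bp and 99.9% from 10000 bp, so that passing at 5 kb and over was general. In single replicates the 3 sets were less alike. From 1002 to 1999 bp, 68.1% on U and 71.7% on Uextra passed in replicate 2, against 83.8% on the Het scaffolds. In replicate 1 the order was the opposite, at 53.2% and 51.3% against 44.1%. Clusters under 2000 bp made up 176 of 515 on U and 345 of 598 on Uextra, against 81 of 592 on the Het scaffolds. Whether the lower agreement on Uextra is due to length was not tested.

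**Figure D3:**
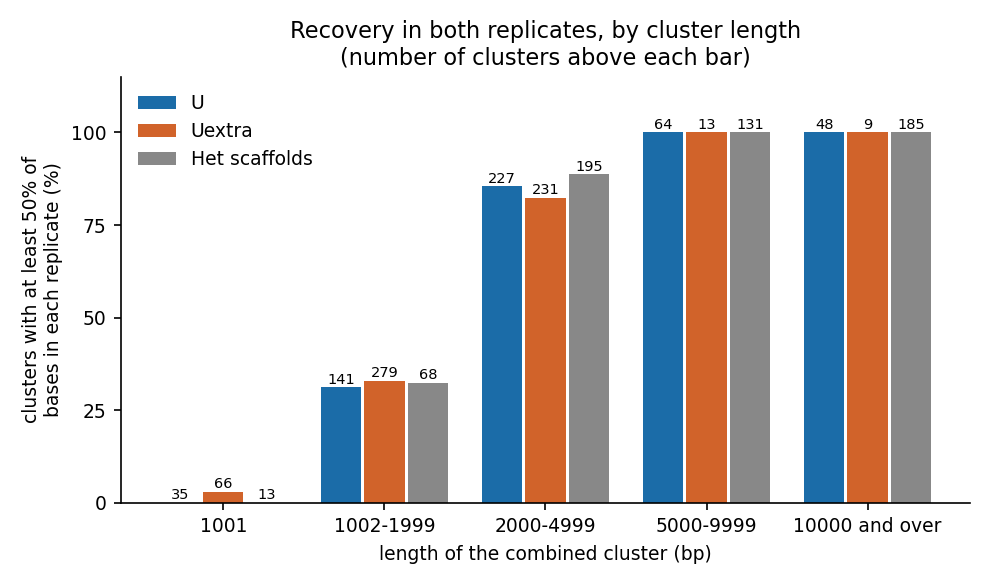
Share of combined clusters with at least 50% of their bases in each replicate (y axis, percent) by cluster length (x axis, bp), for U, Uextra and the Het scaffolds, with the number of clusters above each bar. The 3 sets have similar bars at each length, from 31.2 to 33.0% between 1002 and 1999 bp to 100% from 5000 bp.

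Most clusters with a low share in a replicate met none of its bases. Of the 119 on U and 220 on Uextra with under 50% of their bases in replicate 1, 100 and 200 had no base there. Over all combined clusters it was 1126 of 1306. Of the 71 on U and 130 on Uextra with under 50% in replicate 2, 59 and 105 had none, against 450 of 612 over all. Having no base was thus general in the list. The longest such clusters on the 2 collections differed from this. Of the 6 longest with a low share in replicate 1, 3 on each collection, 5 were partly covered there. On U the longest with under 50% of its bases in replicate 1 was 4908 bp at U:1423241-1428148, with 44.9% in replicate 1 and 97.4% in replicate 2. Replicate 1 had a cluster of 2204 bp there, and replicate 2 one of 4785 bp. The next, 4530 bp at U:1028140-1032669, had 49.3% and 96.1%, and the third, 4512 bp at U:3468432-3472943, had 42.5% and 100%. On Uextra the longest such cluster, 3978 bp at Uextra:449777-453754, had 49.9% in replicate 1 and 100% in replicate 2. The next, 3307 bp at Uextra:1367946-1371252, had no base in replicate 1 and all of its bases in replicate 2. The third, 3068 bp at Uextra:2368825-2371892, had 36.3% and 68.3%.

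Clusters with under 50% of their bases in replicate 2 were shorter. On U the longest were 2134 bp at U:3929858-3931991, with 95.8% in replicate 1 and 4.17% in replicate 2, then 2063 bp at U:6445183-6447245 and 2026 bp at U:6070043-6072068. The last 2 had no base in replicate 2. On Uextra they were 3892 bp at Uextra:838067-841958, with 75.9% in replicate 1 and 48.7% in replicate 2, 2295 bp at Uextra:5591441-5593735, with 99.5% and 43.6%, and 2134 bp at Uextra:28903752-28905885, with 98.6% and none.

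Where each replicate had 1 cluster that met the same combined cluster, the edges were close for most. A combined cluster met by exactly 1 cluster of each replicate, which met no other combined cluster, was found 300 times on U and 306 times on Uextra. The replicate clusters of such a pair did not have to overlap. In a pair on Uextra both were 1001 bp long and their starts lay 1113 bp apart. The starts differed by a median of 119.5 bp on U and 70.0 bp on Uextra, and the ends by 118 and 112 bp. At the far end of the distribution, 10% of the starts differed by more than 916 bp on U and 875 bp on Uextra. Both edges fell within 50 bp in 35 pairs on U (11.7%) and 64 on Uextra (20.9%). No pair was identical. The replicate 2 cluster was the longer in 224 pairs on U and 215 on Uextra, and the replicate 1 cluster in 71 and 81.

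Both replicate lists also held clusters on the unplaced sequence that met no combined cluster. Replicate 1 had 9 on U (2.00% of its U clusters) and 23 on Uextra (5.35%), and replicate 2 had 52 on U (10.4%) and 110 on Uextra (18.2%). The shares were 0.612% in replicate 1 and 4.60% in replicate 2 on the Het scaffolds, and 2.85% and 24.8% on the long arms. Of the 110 on Uextra, 46 were exactly 1001 bp long. Their scores were not low within the list, with a median of 3.78, against 3.39 for the other replicate 2 clusters on Uextra. The Het scaffolds had the same order, at 3.43 and 3.19, and the long arms the opposite one, at 0.880 and 1.149.

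Scores on the unplaced sequence were high within each list. In the combined list the median was 2.68 on U and 2.90 on Uextra, against 2.55 on the Het scaffolds, 1.32 on chromosome 4 and 0.905 on the long arms. In replicate 1 it was 2.61 on U and 2.89 on Uextra, against 2.40 on the Het scaffolds, and in replicate 2 3.33 and 3.42, against 3.19. Score and length were almost unrelated across clusters of the combined list, with a Spearman rank correlation of 0.042 on U and 0.079 on Uextra, against 0.100 on the Het scaffolds and 0.693 on the long arms. In replicate 1 the correlation was -0.279 on U and -0.186 on Uextra, against -0.124 on the Het scaffolds, and in replicate 2 it was 0.115 and 0.037, against 0.076. These correlations describe regions that share libraries.

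Recovery in the replicates did not rise steadily with score. Clusters with under 50% of their bases in each replicate had a median combined score of 3.05 on U and on Uextra, while those that passed in both had 2.68 and 2.82. The Het scaffolds had 3.05, over 7 clusters, and 2.56, and the long arms had the opposite order, at 0.585 and 1.15. When the clusters of each collection were ranked by score and split at the quartiles into 4 groups, of 126 to 132 clusters on U and, because many scores tie, 116 to 191 on Uextra, 53.0% of the top group on U and 41.4% on Uextra passed in both replicates, against 62.0% and 60.7% of the lowest group. On U the share rose from the lowest group to 73.4% in the second and 84.1% in the third, and fell only in the top group. The median length in the third group was 4427 bp. On Uextra the share fell at each step, through 56.8% and 48.3%.

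The 5 highest combined scores on each collection belonged to short clusters. On U the highest, 4.75, was that of a 2470 bp cluster at U:3491418-3493887, followed by 4.64 at U:6544327-6546905, 4.59 at U:3310624-3312750 and 4.43 at both U:5854089-5856840 and U:9686774-9688891. On Uextra the highest, 5.54, was that of a 2012 bp cluster at Uextra:13123591-13125602, followed by 5.25 at Uextra:6198914-6201099, 5.02 at Uextra:793706-795826, 4.86 at Uextra:2089341-2091362 and 4.64 at Uextra:550843-552996. All 10 were between 2012 and 2752 bp long and had at least 76.8% of their bases in each replicate. At the highest on U, the score was 4.24 in replicate 1 and 2.40 in replicate 2, and at the highest on Uextra 5.11 and 3.82. Whether the scores of the replicate lists share a scale is not known.

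The same score occurred again and again on the unplaced sequence. Scores that agreed to 6 decimals with that of another cluster of the same list were carried by 327 of 515 combined clusters on U (63.5%) and 510 of 598 on Uextra (85.3%), where 33.2% of all combined clusters had one. The share was 32.3% on the Het scaffolds and 19.8% on the long arms. The 598 Uextra clusters had 202 different scores, and the 6 most frequent covered 179 clusters (29.9%). Replicate 1 had repeated scores in 61.5% of its clusters on U and 82.8% on Uextra, and replicate 2 in 67.1% and 87.5%. Repeated scores went with short clusters: in the combined list 79.4% of U clusters under 5 kb had one, against 6.25% of the longer ones, and on Uextra 88.0% against 13.6%. The Het scaffolds had the same order, at 63.0% and 5.38%. Clusters on U with a repeated score passed in both replicates in 51.7% of cases, against 96.3% of those with a score of their own, and on Uextra in 43.9% against 93.2%. On the Het scaffolds it was 60.7% against 98.5%, so the contrast was not particular to U and Uextra. Clusters with a repeated score were also the shorter, with medians of 1997 against 5252.5 bp on U and 1986.5 against 2868.5 bp on Uextra.

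The repeated scores also had an arithmetic order. In replicate 2 on Uextra the most frequent values were 3.778 (62 clusters), 3.971 (41), 2.971 (40), 4.141 (26) and 3.141 (25), among which 2 pairs differ by exactly 1. With 2 raised to the power of the score, these values became 14, 16, 8, 18 and 9 times a common step of 0.980. The step was chosen, after the scores had been seen, as the value of the most frequent score in the list divided by the whole number up to 15 that left most scores as whole multiples. Within a tolerance of 0.002 steps, whole multiples were found for 197 of 502 replicate 2 clusters on U (39.2%) and 370 of 606 on Uextra (61.1%), against 17.7% on the Het scaffolds and 2.75% on the long arms. In replicate 1, with a step of 0.823, they were 34.7% on U and 54.7% on Uextra, against 14.2% and 2.85%. In the combined list, with a step of 0.830, they were 29.7% and 49.5%, against 9.46% and 1.49%. This choice of step set the most frequent score at 14 steps in each replicate and at 10 in the combined list. The multiples are therefore in part fixed by it. The median multiple on Uextra was 14 in replicate 2, 12 in replicate 1 and 11 in the combined list. Of the multiples above 14 on Uextra, 148 of 158 were even in replicate 2 and 47 of 52 in replicate 1, but 28 of 56 in the combined list.

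**Figure D4:**
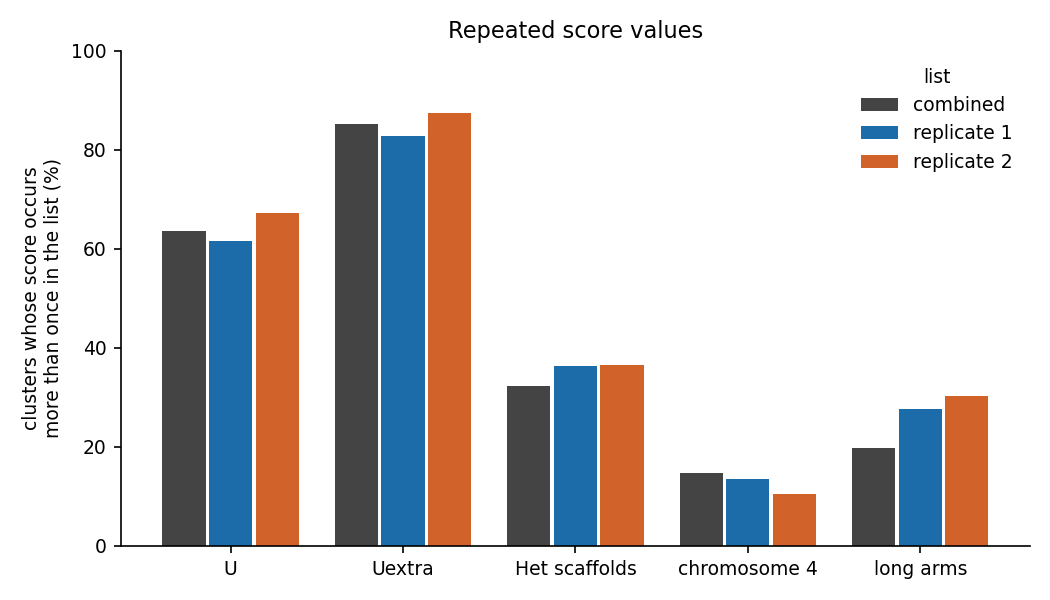
Share of clusters whose score, to 6 decimals, occurs more than once in the same list (y axis, percent) by sequence class (x axis), for the combined list and both replicates. Uextra stands at 82.8 to 87.5% and U at 61.5 to 67.1% in the 3 lists, above the Het scaffolds, chromosome 4 and the long arms.

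The replicates ranked the places they shared differently. Over the 373 combined clusters on U that met a cluster in both replicates, the highest scores met in each had a Spearman rank correlation of -0.088, and over the 332 on Uextra of 0.191. The correlation was 0.274 on the Het scaffolds, 0.534 on chromosome 4 and 0.824 on the long arms. The points share 2 libraries and 2 inputs. Lengths agreed better: over the pairs of single clusters the rank correlation of length was 0.876 on U and 0.592 on Uextra, while that of score was -0.145 and 0.216.

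**Figure D5:**
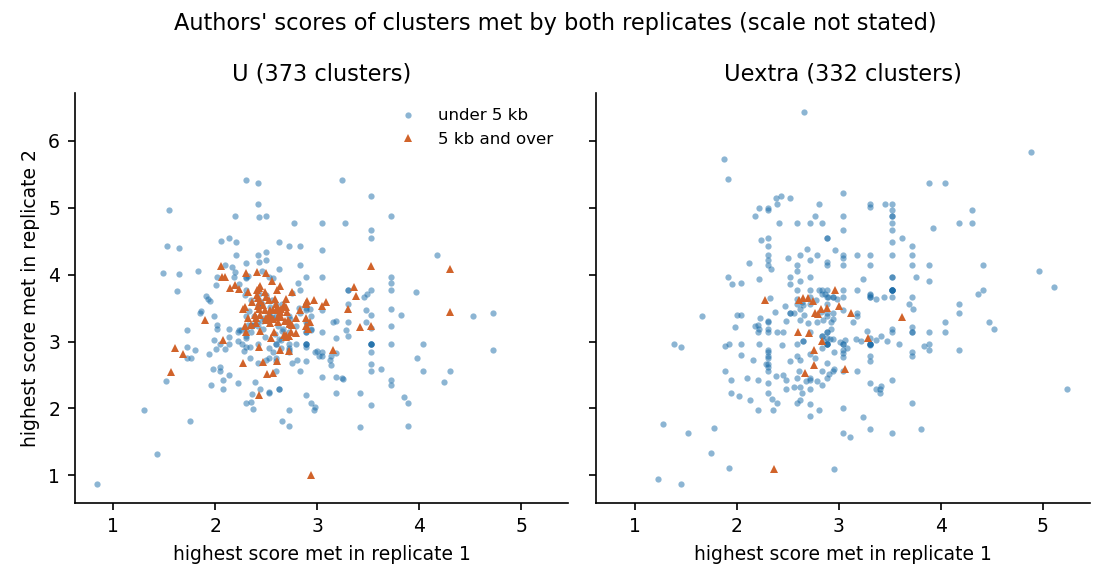
Highest score met in replicate 2 (y axis) against that in replicate 1 (x axis), on the authors' unstated scale, for the 373 clusters on U and the 332 on Uextra met by both replicates, with clusters of 5 kb and over as triangles. Points line up in rows and columns at the repeated scores and show little common trend.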

How the data were processed

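Clusters were read from the 3 deposited lists (1 per ChIP sample, and 1 for the series), which give a sequence, start, end and score for each. Per the file headers, coordinates are on FlyBase release 5, and sequence lengths came from the headers. The submitters' processing notes name Bowtie 0.12.7. How clusters were called and reads filtered, and how the combined list was made, is not given in the sources used here. Scores are as deposited by the authors, with no stated scale, and were compared within a list or by rank. Where scores of different lists stand side by side, whether they share a scale is not known. The lists hold no read counts, so depth is unknown.

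Covered bases, overlaps, gaps and runs were computed with Python 3.11.15, NumPy 2.4.6 and pandas 2.3.3, and rank correlations with SciPy 1.17.1. The interval functions were tested on simulated data. Windows took clusters by their midpoint. Named regions were the 10 longest clusters, the 5 highest scores, the longest runs and the 3 longest clusters with under 50% of bases in a replicate, on each collection. The members and rules were chosen with earlier results of these data known. Alternatives were a score minimum, joined neighbours, other overlap and gap limits, and 1 replicate alone.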

Additional observations from a re-analysis of the deposited data

How the results depend on the processing

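Of 54 recomputed values for 12 results, 32 were counted as kept, 21 as changed and 1 as reversed. Means were counted as kept within 1 SD, and counts within 1.5 times. The shared part of covered bases and the rank correlations have no such spread, so nearly any movement was counted as a change. With clusters at or above the median score of their list, the shared part was 75.4% on U and 51.7% on Uextra, and the score correlation was -0.117 and 0.139. Scores on both collections are high within the lists, so this minimum removed little and could change little. With it, 367 combined clusters on U were met by both replicates, against 373 without it, and 321 on Uextra, against 332. With clusters within 1 kb joined, the shared part was 75.9% and 52.2%, and the median length on U was 2406 bp. Counted as clusters met by both replicates among those met by either, it was 74.9% and 59.4%. With at least 90% of bases required, 206 clusters on U and 174 on Uextra passed in both replicates, a stricter demand by construction. With gaps of at most 1 kb, 138 and 78 clusters were in runs, since fewer gaps qualify. Taking the score of the cluster that shares most bases gave correlations of -0.100 and 0.201. With 1 replicate left out, between 396 and 444 clusters on U and between 378 and 468 on Uextra passed in the other alone, where the demand on the second list is dropped. Covered share and median length then lay within 1 SD of the mean, which any single replicate of 2 must.

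Other alternatives were chosen after the data were seen. Without the first 4 Mb of U and the first 2 Mb of Uextra, the covered share was 8.62% on U and 1.95% on Uextra, and the shared part 53.1% and 33.5%, so the starts of the collections carry much of both. Among clusters of at least 5 kb the score correlation was -0.078 over 112 clusters on U and -0.074 over 22 on Uextra, where the sign reversed, and the cause was not tested. With at least 50% of bases shared by both replicates at once, 339 and 286 clusters passed. No paired analysis was possible because no cluster list of an input was used here. Read depth and mappability are unknown, and a base outside every cluster may still carry the mark.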
